A study of Homo sapiens with 6 samples.

Results

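The genes described here encode the proteins of the cytosolic ribosome and the main factors that move it along an mRNA. Members were taken by name from the 19934 gene symbols of the count tables: every symbol that begins with RPL or RPS followed by a number, P or A, without the RPS6K kinases, together with EEF1A1, EEF1B2, EEF1D, EEF1G and EEF2. This gave 96 genes, of which 43 encode large subunit proteins, 31 encode small subunit proteins, 3 encode proteins of the ribosomal stalk, 5 encode elongation factors and 10 are paralogs of ribosomal protein genes. The other 3 symbols that join a ribosomal protein gene to a neighbour are read-through loci, and RPS19BP1, which the name rule also takes, encodes no ribosomal protein. RNA was sequenced from NCI-H1299, an established human lung cancer line that carries no p53, in 6 libraries. Cells received a control siRNA (si-Ctr), siRNA against the zinc finger protein ZBTB11 (si-ZBTB11) or siRNA against the histone chaperone SET (si-SET) by lipid transfection, and each condition has 2 replicates. The labels do not say which ZBTB11 oligo a library received, and all libraries come from a single line, so the p-values below measure the spread between replicate cultures of that line.

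Each cytosolic ribosome holds a single copy of most of these proteins, so their genes are expressed together and at high levels in growing cells. The small subunit reads the codons, the large subunit joins the amino acids, and the stalk on the large subunit recruits the elongation factors. EEF1A1 brings aminoacyl-tRNA to the ribosome, EEF1B2 and EEF1D, in a complex with EEF1G, recharge it with GTP, and EEF2 drives translocation. Most of these mRNAs start with a C followed by a run of pyrimidines, the terminal oligopyrimidine or TOP motif, through which mTORC1 and LARP1 control their translation and stability.

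The libraries held 16653115 to 17694522 counts, and a floor of 3 counts corresponds to 0.17 to 0.18 CPM (counts relative to the library total), which covers counting error only. The si-ZBTB11 libraries held 548 and 544 ZBTB11 counts against 925 and 1075 in si-Ctr, a normalised level of 54.8% of the control. The si-SET libraries held 1032 and 1031 SET counts against 11656 and 11007, a level of 8.98%, and ZBTB11 itself stood at 76.3% of its control level there (846 and 708 counts). Of the epithelial markers, KRT8 and KRT18 were at 351 to 483 CPM and fell in both knockdowns. The falls were 0.33 and 0.23 on the log2 scale in si-ZBTB11, and 0.31 and 0.15 in si-SET. KRT19, EPCAM and CDH1 were under 1 CPM in every library. Of the lung adenocarcinoma markers, NKX2-1 was at 2.1 to 3.6 CPM. NAPSA and SFTPB were under 1 CPM in every library, and SFTPA1 was at 0 in all 6. Among 7 markers of blood, endothelial, fibroblast, muscle and liver cells, the highest was ACTA2 at 2.0 to 2.9 CPM.

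Ribosomal protein and elongation factor genes took a larger part of the counts in all 4 knockdown libraries than in either control. The 96 members held 7.94% and 8.03% of the counts in si-Ctr, 8.80% and 8.87% in si-ZBTB11, and 8.79% and 8.97% in si-SET. The groups did not overlap, and the mean share was 1.11 times the control in both knockdowns. With 2 libraries against 2 an exact permutation test cannot give a p below 0.333. The share of large subunit proteins was 3.25% and 3.29% in si-Ctr, 3.64% and 3.64% in si-ZBTB11, and 3.54% and 3.66% in si-SET. The elongation factors took 1.90% and 1.93% in si-Ctr, 2.04% and 2.13% in si-ZBTB11, and 2.19% and 2.18% in si-SET, most of it from EEF1A1. In bulk RNA these shares are relative. They do not tell whether the members had more RNA per cell, other genes had less, or the mix of cells differed.

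**Figure D1:**
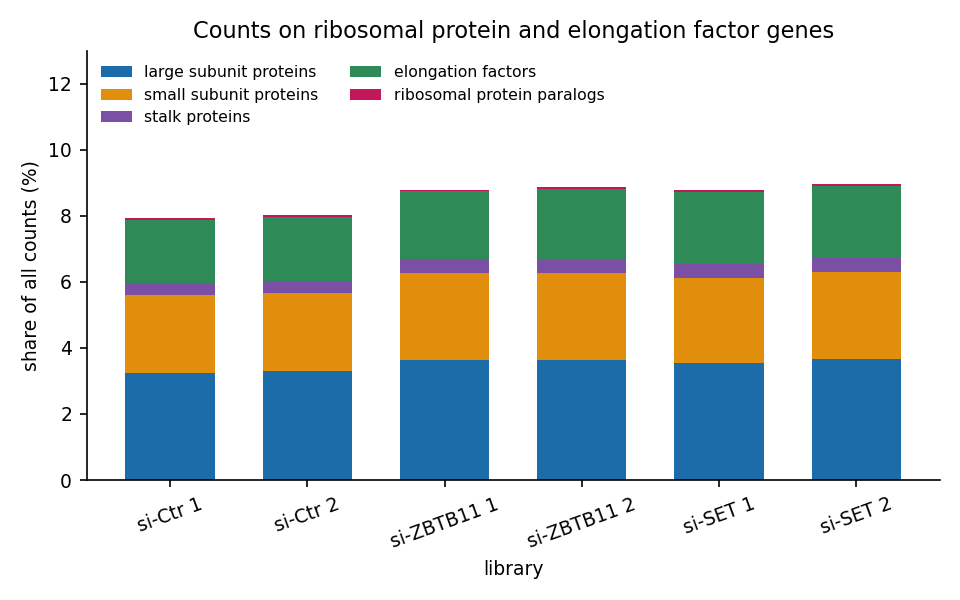
Share of all counts (%) on large subunit, small subunit, stalk, elongation factor and paralog genes, stacked for each of the 6 libraries. Both si-Ctr bars end below all 4 knockdown bars; with RPS19BP1 and the read-through loci, which are not drawn, the totals are 7.94% and 8.03% in si-Ctr and 8.79% to 8.97% in the knockdowns.

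EEF1A1 had the most counts of all members, 250944 to 302786 per library, and also the highest level per length, with 9818 ± 63.0 TPM (transcripts scaled for length and depth, SD, n = 2) in si-Ctr, 10129 ± 366 in si-ZBTB11 and 11002 ± 81.1 in si-SET. TPM was computed with the length of the Ensembl canonical transcript. Of the 96 members, 89 passed the filter on low counts and were tested in every comparison. EEF1G, the 3 read-through loci, RPL10L and the 2 RPS4 paralogs of the Y chromosome were not tested, and 6 of these 7 were listed at 0 in every library. The exception was the read-through locus of RPL17 and C18orf32, with a single count in 2 libraries.

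The comparison of si-ZBTB11 with si-Ctr asks which genes change when ZBTB11 is reduced. Of the 89 members tested, 70 rose and 1 fell at an adjusted p under 0.05 in edgeR's quasi-likelihood test, while 18 did not pass. Over all 13534 genes tested, 9.94% rose and 10.5% fell by the same rule. The rises were small. The median log2 fold change of the members was 0.18, a level 1.13 times the control, against 0.00 over all genes, and the middle 50% of members lay between 0.12 and 0.23. The SD between members was 0.12 and the median standard error (SE) was 0.035. Among the genes at 100 CPM or more on average, 66 of 77 members rose, against 17.8% of 2354 other genes, whose median log2 fold change was 0.01. Both si-ZBTB11 libraries lay above both controls for 79 members, a pattern found for 28.4% of all genes tested. At the study's own rule, an unadjusted p under 0.05 with an absolute log2 fold change over 1, no member was called, against 1.57% of all genes.

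The rise covered both subunits. Of the large subunit genes, 36 of 43 rose and 1 fell, with a median log2 fold change of 0.20. Of the small subunit genes, 26 of 31 rose, with a median of 0.18. All 3 stalk genes, 2 of the 4 elongation factors tested, 2 of 7 paralogs and RPS19BP1 rose. An offset for transcript length lowered the median to 0.12 and the count of risen members to 54, with 2 fallen. It used the length of the canonical transcript, which ran from 295 to 7573 bases over the tested members. By this measure not all of them are short.

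The comparison of si-SET with si-Ctr asks the same question for SET. There 67 of 89 members rose and 0 fell at an adjusted p under 0.05 in edgeR, and 22 did not pass. At an unadjusted p under 0.05 edgeR and DESeq2 also found 0 that fell. Over all 13599 genes tested, 13.1% rose and 13.9% fell. The median log2 fold change was 0.14, 1.10 times the control, against 0.00 over all genes, with the middle 50% of members between 0.11 and 0.20. Of the 77 members at 100 CPM or more, 64 rose, against 19.9% of the 2354 other genes at that level, whose median was 0.00. Both si-SET libraries lay above both controls for 75 members, against 30.8% of all genes tested. No member was called at the study's rule, which took 2.15% of all genes. Of the large subunit genes, 35 of 43 rose, and of the small subunit genes, 24 of 31 did. The stalk gave 2 of 3, the elongation factors 2 of 4 and the paralogs 3 of 7. The alternative fits that kept every library, the length offset among them, gave si-SET medians of 0.13 to 0.15.

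The 2 si-SET libraries differed more in the level of the median member than the replicates of the other groups did. Set against the si-Ctr mean, the median member stood at 0.12 and 0.18 (log2) in the 2 si-SET libraries, at 0.18 and 0.17 in the si-ZBTB11 libraries and at −0.01 and 0.01 in the controls. With a library left out, 49 to 68 members rose in si-SET, the lowest count without si-Ctr replicate 1, and the median ran from 0.12 to 0.17. The same for si-ZBTB11 gave 60 to 70 risen members and medians of 0.17 to 0.19. The 2 knockdowns share their control libraries, so a likeness between their fold changes is no independent observation, and the values are given side by side.

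**Figure D2:**
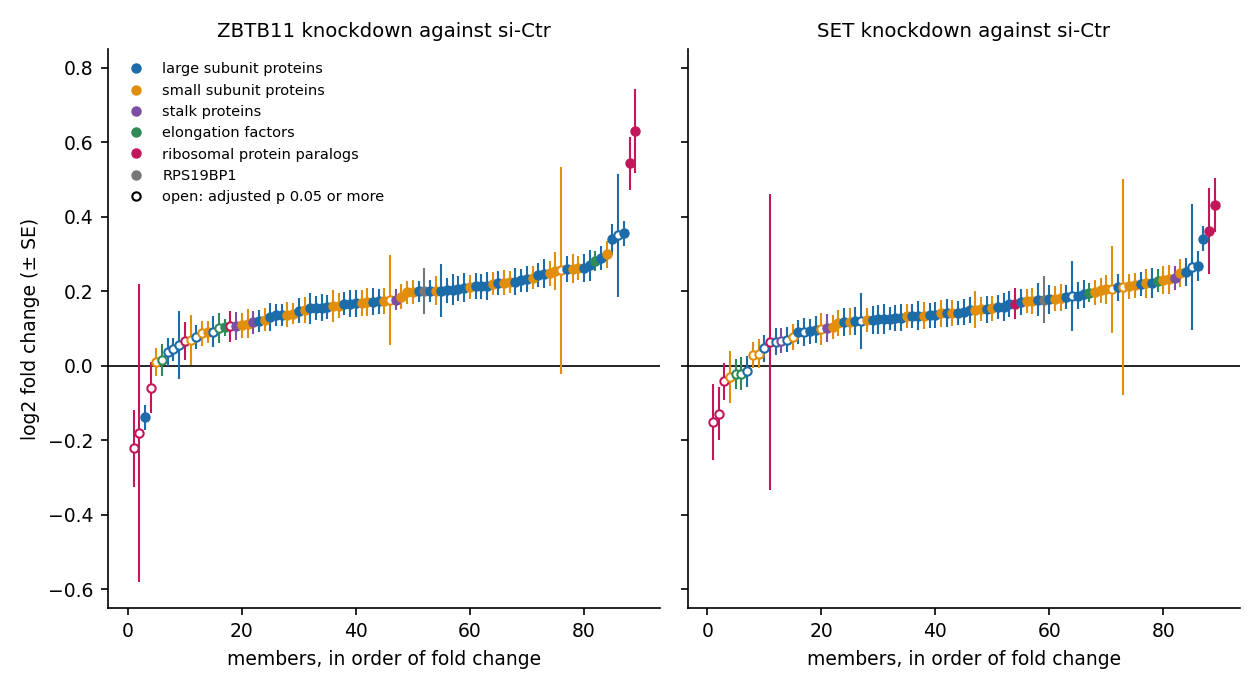
Log2 fold change of the 89 members tested, in order of size, for si-ZBTB11 against si-Ctr (left) and si-SET against si-Ctr (right); bars are ± SE, colours give the role of the gene and open points did not pass an adjusted p of 0.05. The middle 50% of points lie between 0.12 and 0.23 on the left and between 0.11 and 0.20 on the right, and RPL22L1 and RPL26L1 are the 2 highest.

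**Figure D3:**
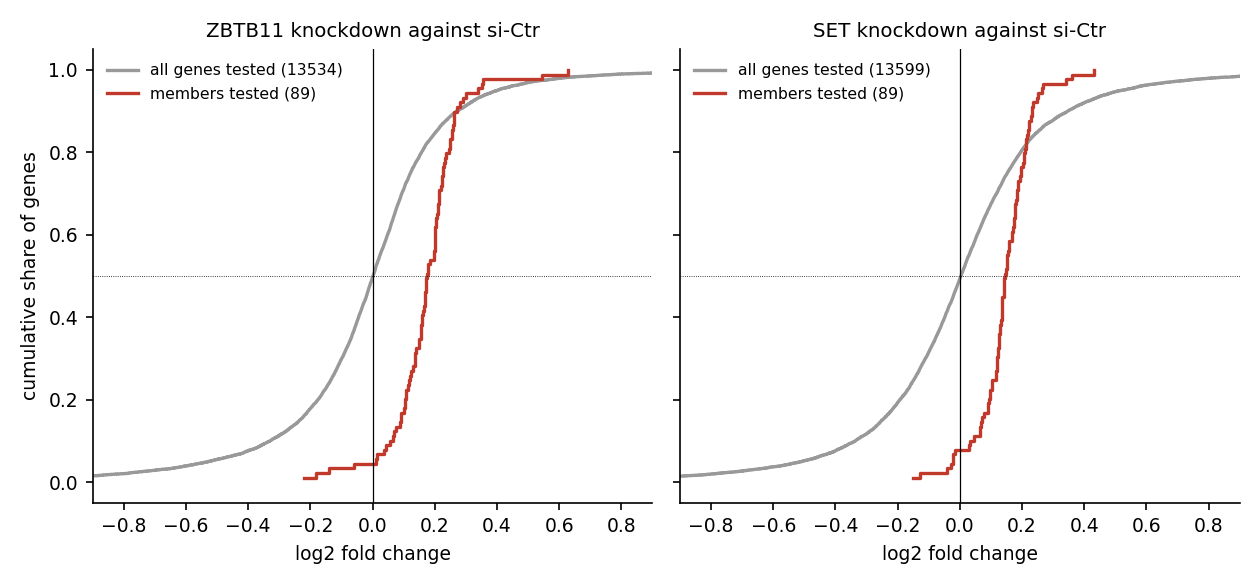
Cumulative share of genes (y axis) at or below a log2 fold change (x axis, drawn from −0.9 to 0.9), for all genes tested (grey) and the members (red). The red curves cross 0.5 at 0.18 for si-ZBTB11 and 0.14 for si-SET, where the grey curves cross at 0.00.

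Of the elongation factors, EEF1A1 and EEF2 rose in both knockdowns. EEF1A1 was at 14853 and 15002 normalised CPM in si-Ctr, 15686 and 16347 in si-ZBTB11 and 17110 and 17102 in si-SET. The 3 groups did not overlap, and the log2 fold change against si-Ctr was 0.10 (SE 0.022, adjusted p = 0.000191, edgeR) for si-ZBTB11 and 0.20 (SE 0.027, adjusted p = 1.77e-09) for si-SET. EEF2 was at 3552 and 3732 in si-Ctr, 4344 and 4500 in si-ZBTB11 and 4311 and 4223 in si-SET. All 4 knockdown libraries stood above both controls, with log2 fold changes of 0.28 (SE 0.027) and 0.23 (SE 0.030). The exchange factor subunits EEF1B2 and EEF1D passed in neither comparison with si-Ctr. EEF1B2 was at 283 and 291 in si-Ctr, 302 and 312 in si-ZBTB11 and 278 and 287 in si-SET, with log2 fold changes of 0.10 (SE 0.040, adjusted p = 0.0636 in edgeR) and −0.02 (SE 0.041, adjusted p = 0.738). Both si-ZBTB11 libraries lay above both controls, and the si-SET libraries overlapped them. EEF1D gave 0.02 (SE 0.044) and −0.02 (SE 0.043), with overlapping groups.

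The third subunit, EEF1G, was listed at 0 counts in all 6 libraries. In GENCODE version 44 on hg38, 99.5% of the exon bases of its canonical transcript are shared with another protein-coding gene on the same strand. Several other core genes with low counts have such overlaps. Of the 77 ribosomal protein genes of the subunits and stalk, those under 100 CPM included RPL17, RPL26, RPL36A, RPS10 and RPS15A. Their exon bases shared with another gene on the same strand came to 96.9% for RPL17, 84.0% for RPS10, 65.3% for RPL26, 43.8% for RPL36A and 9.90% for RPS15A. A small overlap was also found at a higher level: RPL22, with 11.2% of its exon bases shared, stood at 248 to 275 normalised CPM. RPS10, for example, had 2.3 to 3.4 CPM across the 6 libraries. How the counting treated reads in shared bases is not given in the sources used here, and the part of the overlaps in these counts was not tested. Where the overlapping gene lies on the opposite strand, with over 50% of the exon bases of RPL10, RPL30 and RPL38, the counts stood above 100 CPM. The levels of these low genes are therefore uncertain, and of those named RPL26 was called, in si-ZBTB11. Near-identical copies are a further limit: the median member shares 31% of its 31-base words with other places in the genome, and RPL21, RPS3A and RPS27 share over 90% of them.

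The stalk proteins RPLP0, RPLP1 and RPLP2 form the arm that contacts the elongation factors. RPLP0 was at 2091 and 2161 normalised CPM in si-Ctr, 2376 and 2426 in si-ZBTB11 and 2539 and 2466 in si-SET. It rose by 0.18 (log2, SE 0.029, adjusted p = 5.47e-07 in edgeR) and 0.24 (SE 0.031, adjusted p = 1.14e-09), with no overlap of either knockdown with the controls. RPLP1 rose in si-ZBTB11 (1355 and 1352 against 1250 and 1249), a log2 fold change of 0.12 (SE 0.031), and gave 0.07 (SE 0.033, adjusted p = 0.126 in edgeR) in si-SET, where it passed without si-SET replicate 1 (0.10, adjusted p = 0.0337). RPLP2 passed narrowly in both, at 0.11 (adjusted p = 0.031, edgeR) and 0.10 (adjusted p = 0.0348). It did not pass in DESeq2 in either knockdown (adjusted p = 0.142 and 0.122), with library size only or in the joint fit of the 6 libraries. Its call was also lost in si-ZBTB11 without si-Ctr replicate 1 (0.08) or si-ZBTB11 replicate 1 (0.04), and in si-SET without si-Ctr replicate 1 (0.07), si-Ctr replicate 2 (0.13) or si-SET replicate 2 (0.06). With the offset for transcript length the si-ZBTB11 value turned to −0.00597. The si-SET value was 0.06 under that offset and did not pass (adjusted p = 0.204, edgeR).

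Of the core ribosomal proteins, RPL11, RPL39, RPS28, RPL12 and RPL36 rose most. RPL11, a large subunit protein that also binds MDM2 as part of the 5S particle, was at 584 and 600 normalised CPM in si-Ctr, 766 and 748 in si-ZBTB11 and 674 and 737 in si-SET. The knockdown libraries lay above both controls, with log2 fold changes of 0.36 (SE 0.035, adjusted p = 2.74e-15 in edgeR) and 0.25 (SE 0.037, adjusted p = 1.99e-08). RPL12, which lies at the base of the stalk, was at 872 and 887 in si-Ctr, 1070 and 1078 in si-ZBTB11 and 1095 and 1134 in si-SET. Its si-SET libraries lay above its si-ZBTB11 libraries, the reverse of RPL11. In the main fit neither RPL12 nor RPL11 passed in the direct comparison of the knockdowns (adjusted p = 0.361 and 0.0866, edgeR). RPL12 passed there with the length offset (−0.11, adjusted p = 0.0235 in edgeR). RPL11 passed with the replicate block (0.10, adjusted p = 0.0164 in edgeR), and its difference was 0.17 without si-SET replicate 2. Against si-Ctr, RPL12 rose by 0.29 (SE 0.032) and 0.34 (SE 0.034). The small subunit protein RPS28 rose by 0.30 (SE 0.036) and 0.25 (SE 0.037), from 479 and 501 to 610 and 594 and to 566 and 598. RPL36 rose by 0.27 in both knockdowns (SE 0.042 and 0.041), from 232 and 233 to 287 and 274 and to 278 and 282. RPL11, RPL12, RPS28 and RPL36, with EEF1A1, EEF2, RPLP0 and RPL26L1, kept direction and call under every alternative tried for the 2 comparisons with si-Ctr.

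RPL39, a protein at the exit of the peptide tunnel, was at 243 and 225 in si-Ctr, 301 and 291 in si-ZBTB11 and 249 and 281 in si-SET. It rose by 0.34 (SE 0.042) and 0.18 (SE 0.044, adjusted p = 0.000955 in edgeR). In si-SET the value fell to 0.12 without si-Ctr replicate 2 (adjusted p = 0.122, edgeR) and to 0.09 without si-SET replicate 2 (adjusted p = 0.214).

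RPL29, a large subunit protein, was the only member that fell in si-ZBTB11. Its locus in hg38 is chr3:51993522-51995895, minus strand. It was at 894 and 952 normalised CPM in si-Ctr, 839 and 836 in si-ZBTB11 and 991 and 1026 in si-SET. The si-ZBTB11 libraries lay below both controls and the si-SET libraries above both. The log2 fold change was −0.14 (SE 0.033, adjusted p = 0.00086 in edgeR) in si-ZBTB11 and 0.13 (SE 0.035, adjusted p = 0.00256) in si-SET. The fall was −0.09 without si-Ctr replicate 2 (adjusted p = 0.168, edgeR), and the rise was 0.08 without si-Ctr replicate 1 (adjusted p = 0.229). Of its 31-base words, 61.2% occur elsewhere in the genome.

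Of the paralogs, which replace a core protein in some tissues or ribosomes, RPL26L1 and RPL22L1 gave the largest fold changes of all members. RPL26L1 was at 43.2 and 41.7 normalised CPM in si-Ctr, 65 and 58.7 in si-ZBTB11 and 57.6 and 57 in si-SET. Both knockdowns stood clear of the controls, with log2 fold changes of 0.54 (SE 0.070, adjusted p = 5.2e-10 in edgeR) and 0.43 (SE 0.073, adjusted p = 9.71e-07). RPL22L1, the paralog of RPL22, was at 14.8 and 15.2 in si-Ctr, 24.2 and 22.1 in si-ZBTB11 and 19.9 and 18.6 in si-SET, again without overlap. It rose by 0.63 (SE 0.11, adjusted p = 4.76e-06 in edgeR) and 0.36 (SE 0.12, adjusted p = 0.0118), but the si-SET call was lost in DESeq2 (adjusted p = 0.154) and, in edgeR, without si-Ctr replicate 1 (0.34, adjusted p = 0.0818) or si-SET replicate 1 (0.31, adjusted p = 0.0968). RPL22 itself gave 0.09 (adjusted p = 0.11, edgeR) and −0.01 (adjusted p = 0.842).

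RPL7L1, which takes part in ribosome assembly, rose in si-SET, from 243 and 252 to 277 and 278, by 0.17 (SE 0.041, adjusted p = 0.000947 in edgeR), or 0.14 without si-Ctr replicate 1 (adjusted p = 0.068). In si-ZBTB11 it gave 0.11 (adjusted p = 0.0581, edgeR), or 0.12 with the offset for transcript length (adjusted p = 0.0315). RPL39L, the testis paralog of RPL39, gave −0.22 (SE 0.10) and −0.15 (SE 0.10), and RPS27L, a p53 target, gave −0.06 (SE 0.068) and −0.13 (SE 0.071), or −0.23 in si-SET without si-SET replicate 2 (adjusted p = 0.0393, edgeR). With the offset for transcript length RPL39L passed as a fall in si-ZBTB11 (−0.30, adjusted p = 0.0343 in edgeR), the second fallen member under that offset. Without an offset and with all libraries neither passed, nor did RPL36AL (0.07 and −0.04) or RPL3L, the muscle paralog of RPL3, which was at 1.1 to 1.8 CPM.

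**Figure D4:**
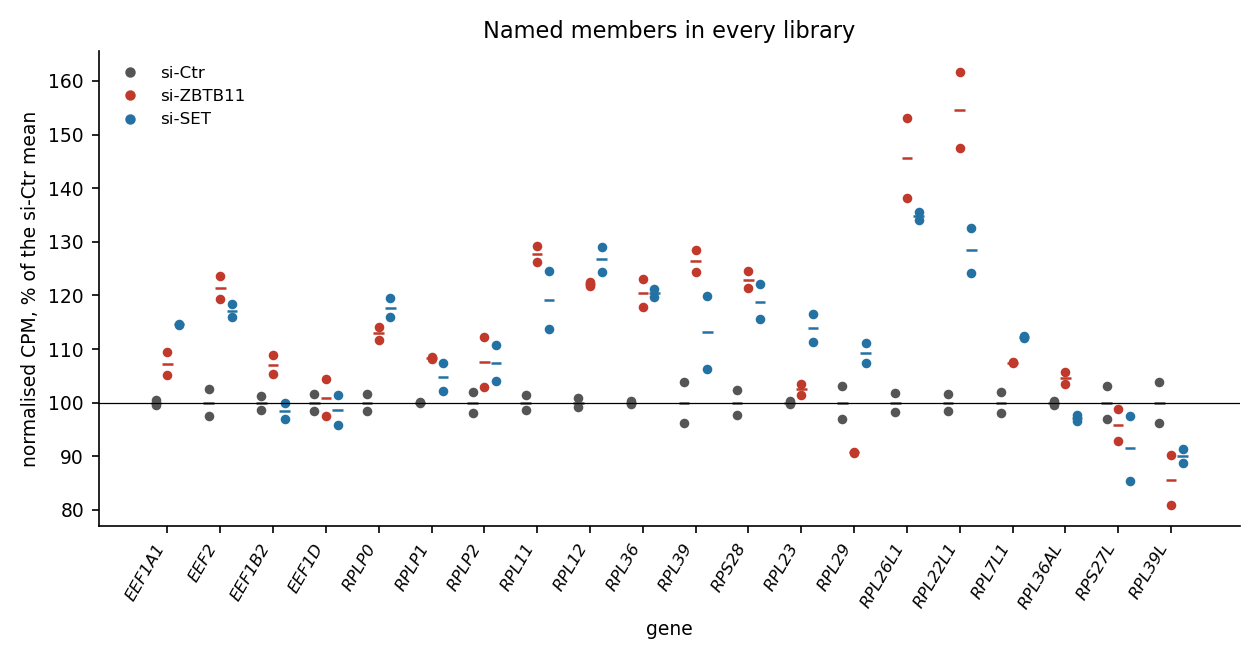
Normalised CPM of 20 named members in each library, as a percent of the si-Ctr mean of the gene (y axis, not starting at 0); points are libraries and short bars are group means of 2. RPL29 is the gene with red points below and blue points above its controls, and RPL26L1 and RPL22L1 have the highest red points.

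The 2 knockdowns were also compared directly, without the control libraries. Of the 89 members, 2 were higher and 4 lower in si-ZBTB11 than in si-SET at an adjusted p under 0.05 in edgeR, against 9.61% and 8.58% of all 13549 genes tested. The median difference was 0.05 (log2). RPL29 differed most, by −0.27 (SE 0.038, adjusted p = 2.5e-06 in edgeR). It was lower in both si-ZBTB11 libraries than in both si-SET libraries, and it was the only member called under every alternative. RPL23 (−0.15, SE 0.040) and EEF1A1 (−0.09, SE 0.031) were also lower in si-ZBTB11, and RPL39 (0.16, SE 0.048) and EEF1B2 (0.12, SE 0.043) were higher. RPL23 was at 497 and 486 normalised CPM in si-ZBTB11, near its 481 and 478 in si-Ctr, and at 534 and 559 in si-SET. The count of higher members was unstable, with 14 of them without si-SET replicate 2 and 0 without si-SET replicate 1. The differences of the named members other than RPL29 were each lost when at least 1 library was left out. EEF1A1 gave −0.06 without si-ZBTB11 replicate 1, and EEF1B2 gave 0.10 without si-ZBTB11 replicate 2 or si-SET replicate 1. RPL23 gave −0.14 without si-ZBTB11 replicate 2 and −0.12 without si-SET replicate 2. RPL39 gave 0.14 without si-ZBTB11 replicate 1 and 0.08 without si-SET replicate 1. With every library kept, the EEF1B2 and RPL39 differences were also lost in DESeq2 (adjusted p = 0.087 and 0.0521) and with the length offset. EEF1B2 lost its call with library size only as well.

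**Figure D5:**
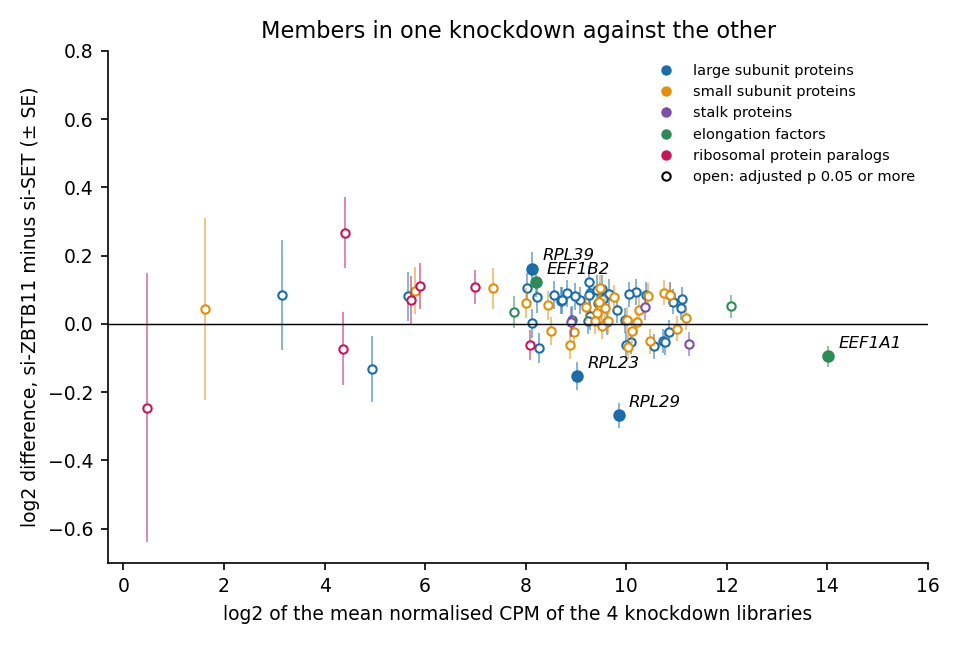
Log2 difference between si-ZBTB11 and si-SET (y axis, ± SE) against the log2 of the mean normalised CPM over the 4 knockdown libraries (x axis) for most of the members tested, RPS19BP1 not among them. The filled, named points passed an adjusted p of 0.05, and RPL29 lies lowest of them at −0.27.

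Genes outside the name rule that belong to the same machinery were counted from lists. FAU, which encodes a small subunit protein fused to a ubiquitin-like one, and the small subunit protein RACK1 rose in both knockdowns, by 0.23 and 0.10 in si-ZBTB11 and by 0.15 and 0.11 in si-SET (log2), although both si-SET calls were lost without si-Ctr replicate 1, that of FAU also in DESeq2 and without si-SET replicate 2, and RACK1 also lost its si-ZBTB11 call without that library, with library size only and with the length offset. Of 16 other mRNAs known to carry a TOP motif, a list that shares these genes and several initiation factors with the other lists, 12 rose in si-ZBTB11 and 9 in si-SET. In neither did 1 fall, and 0 had an unadjusted p under 0.05 with a fall in edgeR or DESeq2. NPM1, a nucleolar chaperone of ribosome assembly, rose by 0.20 and 0.17, and COX7C, a subunit of cytochrome oxidase, by 0.29 and 0.27. Of 36 initiation factors, 13 rose and 0 fell in si-ZBTB11 (1 fell at an unadjusted p under 0.05 in edgeR, and 1 in DESeq2), and 7 rose and 2 fell in si-SET. Over all genes 9.94% rose and 10.5% fell in si-ZBTB11 and 13.1% and 13.9% in si-SET, and of the other genes at 100 CPM or more 17.8% and 19.9% rose, so the si-SET count of risen factors is near the background. EIF3F rose in both, by 0.36 and 0.38. EIF3D rose by 0.59 (SE 0.045) in si-ZBTB11, from 148 and 151 to 224 and 225 CPM, and by 0.17 in si-SET, where leaving out si-Ctr replicate 1 ended the call. The cap-binding factor EIF4E2 fell by 0.39 in si-SET, and its rise of 0.18 in si-ZBTB11 was lost in DESeq2, with the length offset and in 3 fits that left a library out.

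Of 20 further elongation factors and their modifying enzymes tested, 2 rose and 2 fell in each knockdown, against 9.94% and 10.5% of all genes in si-ZBTB11 and 13.1% and 13.9% in si-SET. EEFSEC, the elongation factor for selenocysteine, fell by 1.73 (log2, SE 0.18) in si-ZBTB11, from 12.9 and 12.3 to 2.9 and 4.6 CPM, and gave 0.00 (SE 0.14) in si-SET with 10.2 and 14.9 CPM. DPH3, which serves the diphthamide modification of EEF2, rose by 0.45 in si-ZBTB11, and by 0.26 in si-SET, where the call was lost in DESeq2 and without si-Ctr replicate 2 or si-SET replicate 1. Of the 9 chaperones of ribosomal proteins, TSR2, the partner of RPS26, and PDCD2, the partner of RPS2, rose in both knockdowns (0.24 and 0.19 in si-ZBTB11, 0.26 and 0.13 in si-SET), with the PDCD2 call in si-SET lost whichever library was left out, both PDCD2 calls lost in DESeq2, and in si-ZBTB11 the TSR2 call lost without si-ZBTB11 replicate 1 and the PDCD2 call without si-ZBTB11 replicate 2. Of 16 genes of mTORC1 signalling, LARP1 and the MYC network, 1 rose and 2 fell in si-ZBTB11, and 2 rose and 1 fell in si-SET, against the same shares of all genes. EIF4EBP2, which represses cap-dependent translation, fell in both, by 0.36 and 0.30. The other called genes in si-ZBTB11 were DEPTOR, which rose by 0.87 from 2.7 and 1.7 to 3.9 and 4.2 CPM, and RHEB, which fell by 0.17. Both of these calls were lost in DESeq2 and without si-ZBTB11 replicate 2. The DEPTOR call was also lost without si-Ctr replicate 2, and the RHEB call without si-Ctr replicate 1. MYC gave 0.11 (adjusted p = 0.14, edgeR) in si-ZBTB11 and rose by 0.19 in si-SET, where the call was lost without si-Ctr replicate 1 or si-SET replicate 1. LARP1 gave 0.06 and −0.05 (adjusted p = 0.21 and 0.29, edgeR).

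The start of the transcript is what most members share outside their proteins. RefSeq windows on GRCh38, from 250 bases before to 50 after a start, were given for 76 of the 96 members and for 14896 genes of the tables in all. A pyrimidine tract of at least 8 letters on the sense strand, overlapping the 20 bases on either side of the start, was in 85.5% of the members and 26.3% of all these genes. A C at the start itself followed by at least 4 pyrimidines, a feature looked at after the data, was in 68.4% and 6.36%. The starts below were chosen to show the 5 core proteins named above for their rises, the elongation factors and the stalk protein that rose in both knockdowns under every alternative, RPL29 and the 2 paralogs. Each window holds the last 10 bases before the start and the first 20 bases of the transcript, 5′ to 3′, and capitals mark the longest pyrimidine run that touches the first 6 transcribed bases.
RPL11, chr1:23691796-23691825, plus strand: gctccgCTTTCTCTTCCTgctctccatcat
RPS28, chr19:8321486-8321515, plus strand: gaagcacgtgaCTCCTCTCCgccagaccgc
RPL36, chr19:5690285-5690314, plus strand: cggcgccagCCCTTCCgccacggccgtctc
RPL39, chrX:119791611-119791640, minus strand: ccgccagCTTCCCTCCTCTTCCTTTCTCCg
RPL12, chr9:127451387-127451416, minus strand: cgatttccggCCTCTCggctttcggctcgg
EEF2, chr19:3985444-3985473, minus strand: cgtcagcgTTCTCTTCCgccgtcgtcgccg
EEF1A1, chr6:73521013-73521042, minus strand: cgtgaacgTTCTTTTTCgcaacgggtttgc
RPLP0, chr12:120201092-120201121, minus strand: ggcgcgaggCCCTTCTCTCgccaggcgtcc
RPL29, chr3:51995876-51995905, minus strand: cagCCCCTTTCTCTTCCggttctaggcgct
RPL22L1, chr3:170870176-170870205, minus strand: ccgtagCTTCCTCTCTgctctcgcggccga
RPL26L1, chr5:172958870-172958899, plus strand: ggcggcggccacaaaCCCgcaggcacgccg

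The run is 22 letters in RPL39, beginning at position −3 relative to the start, and 14 in RPL29, beginning at −7. These lengths therefore include bases before the start. RPL26L1 has a run of only 3 letters, which begins after the first 5 transcribed bases in the window shown. Whether the length of the run goes with the change in level was not tested. RPL11 and RPL26L1 have 2 starts in the table, and the start with the longer run is shown. Of the tested members with a window, the 61 that hold the tract of 8 had a median log2 fold change of 0.18 in si-ZBTB11 and 0.15 in si-SET, and the 9 without it had 0.23 and 0.15.

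Other words were counted in the same windows. The study gives a ZBTB11 consensus that can be spelled CCGGAAG or CAGGAAG, and each spelling was searched on both strands. CCGGAAG was in 32.9% of the members with a window and 16.7% of all genes, and CAGGAAG was in 15.8% and 16.2%. In si-ZBTB11 the 25 members with CCGGAAG had a median log2 fold change of 0.18 and the 45 without it had 0.20. For CAGGAAG the medians were 0.22 with it (10 members) and 0.18 without it (60 members). The TATA word TATAAA, searched on the sense strand, was in 6.58% of the members and 8.48% of all genes, and CGCGAGA, on both strands, was in 23.7% and 6.15%. These are matches of letters in a window and no measure of binding.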

How the data were processed

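Total RNA of 6 NCI-H1299 libraries was sequenced in paired-end mode. Per the labels and the study's methods, the authors aligned reads to hg38 with HISAT2 2.0.5 and counted them per gene with featureCounts 1.5.0-p3; the deposited values are raw counts, not normalized. Strand setting, treatment of reads with several matches and annotation are not given in the sources used here.

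From the counts, pairs of conditions were compared with edgeR 4.0.16 in R 4.3.3 (TMM normalization, default filterByExpr, quasi-likelihood test, two-sided, only the 2 groups in the fit), with Benjamini-Hochberg adjustment over all genes tested and calls at an adjusted p under 0.05. SE was taken from the fold change and the F statistic. Normalised CPM use TMM factors over the 6 libraries. Gene models came from GENCODE version 44, to which 19294 of 19934 symbols and all 96 members were matched, and transcript starts from RefSeq. Scripts were tested on simulated data.

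The members and gene lists were chosen with earlier results of these data known. Named were the elongation factors, stalk genes and tested paralogs, for each comparison the 6 members with the largest rise and the 6 with the largest fall among those called, the member with the most counts or the highest level per length, and up to 5 called genes of each other list; RPL22 and the genes with overlapping neighbours were named after their values were seen. Alternatives were DESeq2 1.42.0, its size factors, library size only, TMM without the members, 2 other filters (1 count in total or 10 in each library), a joint fit of the 6 libraries, a replicate block, offsets for transcript length and GC content (the latter added after seeing the data), and each library left out. Some single-gene results that this rule would include are not reported here. Chromatin data were not analysed here.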

Additional observations from a re-analysis of the deposited data

Results flagged for a closer look

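The following members differed between the 2 knockdowns in the direct test with edgeR's quasi-likelihood test, which uses no control library. The log2 difference of si-ZBTB11 minus si-SET was −0.27 for RPL29 (adjusted p = 2.5e-06 in edgeR), −0.15 for RPL23 (adjusted p = 0.00671), −0.09 for EEF1A1 (adjusted p = 0.0287), 0.12 for EEF1B2 (adjusted p = 0.0459) and 0.16 for RPL39 (adjusted p = 0.0168). Of these, RPL29 alone was called under all 14 alternatives, and it is the member that fell in si-ZBTB11 and rose in si-SET against the same controls.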

How the results depend on the processing

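Of the 71 members called in si-ZBTB11, 50 kept call and direction under all 14 alternatives, as did 40 of 67 in si-SET and 1 of 6 between the knockdowns. With a library left out, risen members numbered 60 to 70 in si-ZBTB11 (fallen 0 to 1, medians 0.17 to 0.19), 49 to 68 in si-SET (fallen 0 to 1, medians 0.12 to 0.17) and 0 to 14 between the knockdowns (lower 2 to 3, medians 0.03 to 0.07). Under the length offset 2 members fell in si-ZBTB11, the median was 0.12 and RPLP2 turned to −0.00597, and between the knockdowns 0 members were higher and 8 lower, with a median of 0.0105. Members higher in si-ZBTB11 than in si-SET, 2 in the main fit, came to 0 with DESeq2, 1 with library size only, 3 with TMM without the members, 3 with every gene of 1 count or more, 6 with the joint fit and 4 with the GC offset. The replicate block gave 16 such members, 75 risen in si-ZBTB11 and 72 in si-SET, but same-numbered libraries deviated together with correlations of only 0.01, 0.03 and 0.01, so the numbers were not taken to pair the samples. Core members alone held 8.77% of the counts in si-ZBTB11. The causes of these shifts were not tested. With 2 libraries a group, fold changes of about 0.1 lie near the limit of what was called, and genes under 100 CPM had wider errors.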
